A study of Penicillium oxalicum with 6 samples.

Results

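The genes described here are those of the filamentous fungus Penicillium oxalicum whose Gene Ontology component term names the proteasome. That rule found 36 of the 8902 genes in the table. The proteasome is the protease complex that breaks down proteins tagged with ubiquitin. Its barrel-shaped core particle is built of alpha rings, which gate the entrance, and beta rings, which carry the active sites. A regulatory particle caps the barrel: ATPase subunits unfold the substrate, and non-ATPase subunits bind ubiquitin and remove it. In budding yeast, subunit genes are largely induced together, through the transcription factor Rpn4.

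Transcripts were counted by digital gene expression tag profiling, in which each transcript is represented by a short tag next to a CATG site. The 3 strains compared all grew in Vogel's medium with 2% glucose. M12, here called the parent, is a uracil auxotroph (pyrGQ226*) obtained from the wild-type strain 114-2. Dmtr23B, the knockout, lacks mtr23B, and Rmtr23B is the strain in which mtr23B was complemented. Mycelia were pre-cultured for 20 h at 30 °C with 2% glucose and sampled 24 h after transfer to fresh medium. The comparison addresses which transcripts differ when mtr23B is missing. The labels do not say whether Dmtr23B and Rmtr23B carry the pyrG allele, how mtr23B was put back, or how many transformants were used. Neither the labels nor the table give the locus of mtr23B, so its own tags were not analysed here.

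Each strain has 1 library, so no difference below has a replicate check, and strain, culture and library cannot be told apart. Levels are given as TPM, here tags per 1000000 of a library, not divided by gene length. Tags assigned to genes numbered 2048846 for the parent, 2013784 for the knockout and 2147854 for the complemented strain, which is 60.1% to 63.9% of each library. A single transcript, PDE_09832, took 13.5%, 0.465% and 25.97% of the assigned tags in that order. All other genes share what remains. The median log2 ratio over all genes was 0.21 for knockout over parent, 0.35 for knockout over complemented and -0.10 for complemented over parent, on the TPM + 1 scale. Of 8 genes matched as conidia markers, 7 reached 10 TPM in some library. Of these, 5 were at least 2-fold lower in the knockout than in both others, against 7.82% of the 5756 genes at that level. The conidiation regulator BrlA had 304, 18 and 300 tags and the pigment gene Ayg1 2527, 109 and 2050, while WetA had 3, 8 and 5. The median over the 8 was 101.4, 13.1 and 119 TPM. Of their summed level, 2794, 1480 and 2004 TPM, the hydrophobin RodA made up 1586.5, 1388 and 812 TPM. PDE_04937 among them is described as a dynactin subunit and matched by its name only. Their part in the proteasome results was not tested.

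The annotation of the 36 genes held a full set of core subunits. There were 7 alpha and 7 beta subunits, 6 ATPases of the regulatory particle, and 6 further genes that the text places in the regulatory particle. Another 6 genes were assigned to the complex without a particle. The remaining 4 are associated proteins or doubtful members. KEGG's proteasome pathway, which the rule did not use, held 32 of the 36, and 19 have a product description that names the complex. Genes known only by a locus name of another species are called here by their identifier. No protein or promoter sequence is shown, since the gene table used here, from strain HP7-1, shares no identifier with these genes.

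Proteasome genes were well expressed and mostly close in level between strains. The summed level of the 36 genes was 3407 TPM in the parent, 4158 TPM in the knockout and 3426 TPM in the complemented strain. Their median stood at percentile 84.1, 85.3 and 85.5 of all genes in that order. At least 10 TPM was reached in some library by 34 of the 36. In 31 of these 34 the highest and lowest library lay within 2-fold of each other, against 55.1% of the 5756 genes that reached 10 TPM. Among genes with a mean of 30 TPM or more the share was 57.7%, and 26 of 29 proteasome genes. Levels of single genes spanned 2 orders of magnitude, from PDE_01616 at 1.79 TPM to the beta subunit PDE_06997 at 375 TPM in the parent. A tag count per gene also depends on its CATG sites, so an unequal level does not by itself show an unequal number of transcripts.

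**Figure D1:**
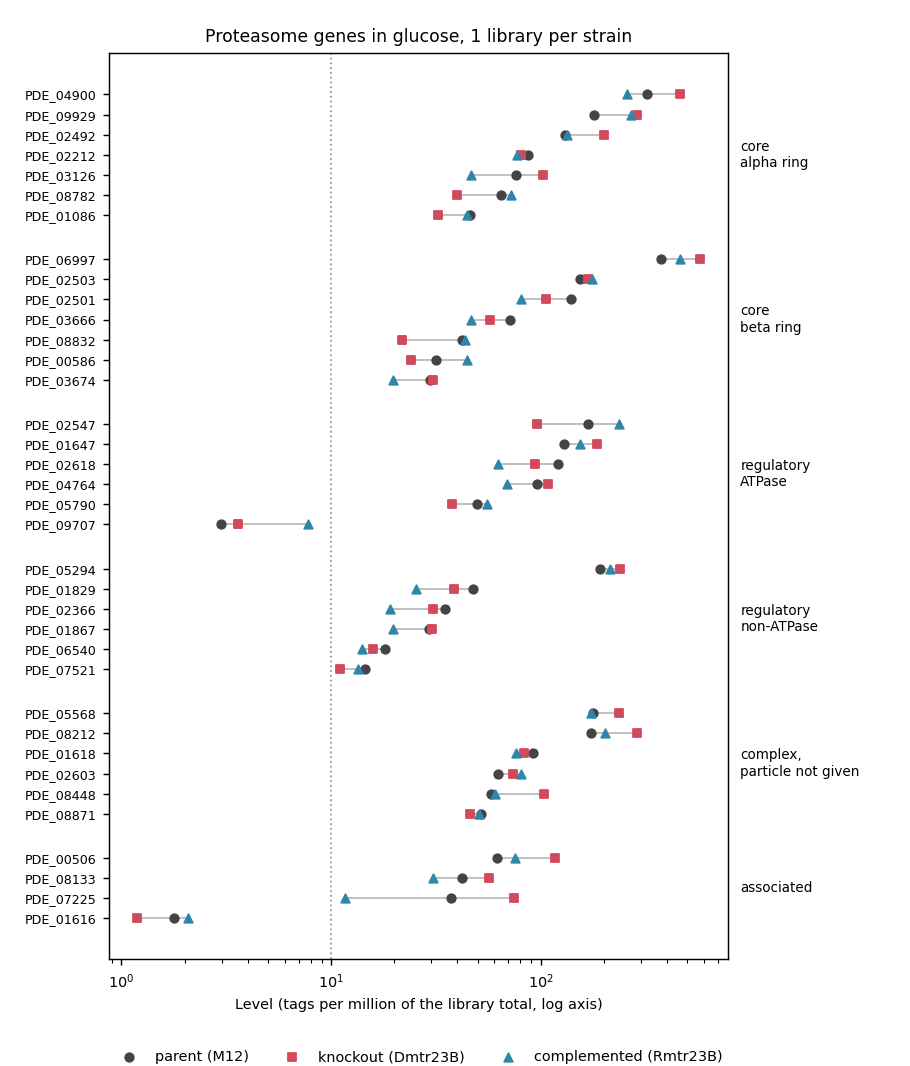
Level of each proteasome gene in the 3 glucose libraries, as TPM on a log axis, grouped by place in the complex, with 1 symbol a library, a grey line from lowest to highest and a dotted line at 10 TPM. Most genes have their 3 symbols close together, and PDE_07225 is the most spread.

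Alpha subunits differed between strains in both directions. In PDE_04900, the alpha subunit with most tags in the parent, the level was 319.7 TPM in the parent, 464 TPM in the knockout and 259 TPM in the complemented strain. The knockout was thus highest, 1.45-fold above the parent (95% interval 1.34 to 1.57) and 1.79-fold above the complemented strain (1.65 to 1.95). These intervals are exact binomial ones from the tag counts. They cover counting error only. PDE_09929, described as the component PRE6, stood at 180.1, 289 and 270.3 TPM. Here both other libraries lay above the parent, the knockout 1.61-fold (1.45 to 1.78) and the complemented strain 1.501-fold (1.35 to 1.67). The alpha type 3 subunit PDE_02492 was highest in the knockout, at 199 TPM with parent and complemented strain alike at 131 and 134 TPM. With libraries scaled to make the median gene even, the log2 ratios of the knockout for this gene were smaller. Over the parent the ratio went from 0.60 to 0.33, and over the complemented strain from 0.57 to 0.14. That of complemented over parent was larger, at 0.19 against 0.03.

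The least expressed alpha subunits were lowest in the knockout. PDE_08782 had 216 tags in the parent, 133 in the knockout and 242 in the complemented strain, and the parent exceeded the knockout 1.62-fold (1.30 to 2.03). Pre5 (PDE_01086) had 155, 108 and 149 tags, a parent excess of 1.43-fold (1.11 to 1.85). In both, the knockout was lowest and the other strains were close to each other. PDE_03126 was again different, at 76.2, 102 and 46.7 TPM. The knockout held 2.18-fold more than the complemented strain there (1.80 to 2.66) and 1.34-fold more than the parent (1.14 to 1.58). PDE_02212 was nearly level, at 86.6, 80.3 and 76.8 TPM. Over the 7 alpha subunits the median log2 ratio of knockout over parent was 0.42, and that of knockout over complemented 0.10. After scaling with median-ratio size factors, which set the median gene even between libraries, these were 0.14 and -0.34, so the second direction depends on the scaling.

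Beta subunits were also mixed. PDE_06997, the most abundant proteasome gene in each library, had 1260, 1925 and 1543 tags for parent, knockout and complemented strain. The knockout was highest, 1.53-fold above the parent (1.43 to 1.65) and 1.25-fold above the complemented strain (1.17 to 1.34). PDE_08832 had 141, 73 and 146 tags. This is the beta subunit furthest down in the knockout, with 1.93-fold more tags in the parent (1.44 to 2.59), while parent and complemented strain nearly coincided. PDE_00586 had 106, 81 and 150 tags, lowest in the knockout and 1.42-fold higher in the complemented strain than in the parent (1.10 to 1.83).

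A further 3 beta subunits were lowest in the complemented strain. Prs3 (PDE_02501) stood at 139 TPM in the parent, 106 TPM in the knockout and 80.4 TPM in the complemented strain, and PDE_03666 at 71.4, 57.6 and 46.4 TPM, the same order of strains. PDE_03674 had 100, 103 and 66 tags. PDE_02503 was the steadiest of the ring, at 153, 168 and 176 TPM. Its locus number is next but 1 to that of PDE_02501, and by TPM they differ in which strain is lowest. With median-ratio factors both were lowest in the knockout. The log2 ratios over parent and complemented strain were then -0.67 and -0.04 for PDE_02501, and -0.14 and -0.50 for PDE_02503. The median log2 ratio over the 7 beta subunits was -0.31 for knockout over parent and 0.30 for knockout over complemented. Scaled to the median gene, 6 of the 7 were lower in the knockout than in the parent, and 6 of 7 than in the complemented strain, with PDE_06997 the exception against the parent and PDE_03674 against the complemented strain.

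Taken as sums of tags, the alpha ring was 1.34-fold higher in the knockout than in the parent (1.27 to 1.40) and the beta ring 1.17-fold (1.11 to 1.23). The sums are led by PDE_04900 and PDE_06997, and the ratio of the beta sum is about that of the median gene. In single genes, 7 of the 14 core subunits were higher and 7 lower in the knockout than in the parent. Of all genes 60.4% were higher and 35.2% lower. Scaled to the median gene, 5 core subunits were higher and 9 lower.

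**Figure D2:**
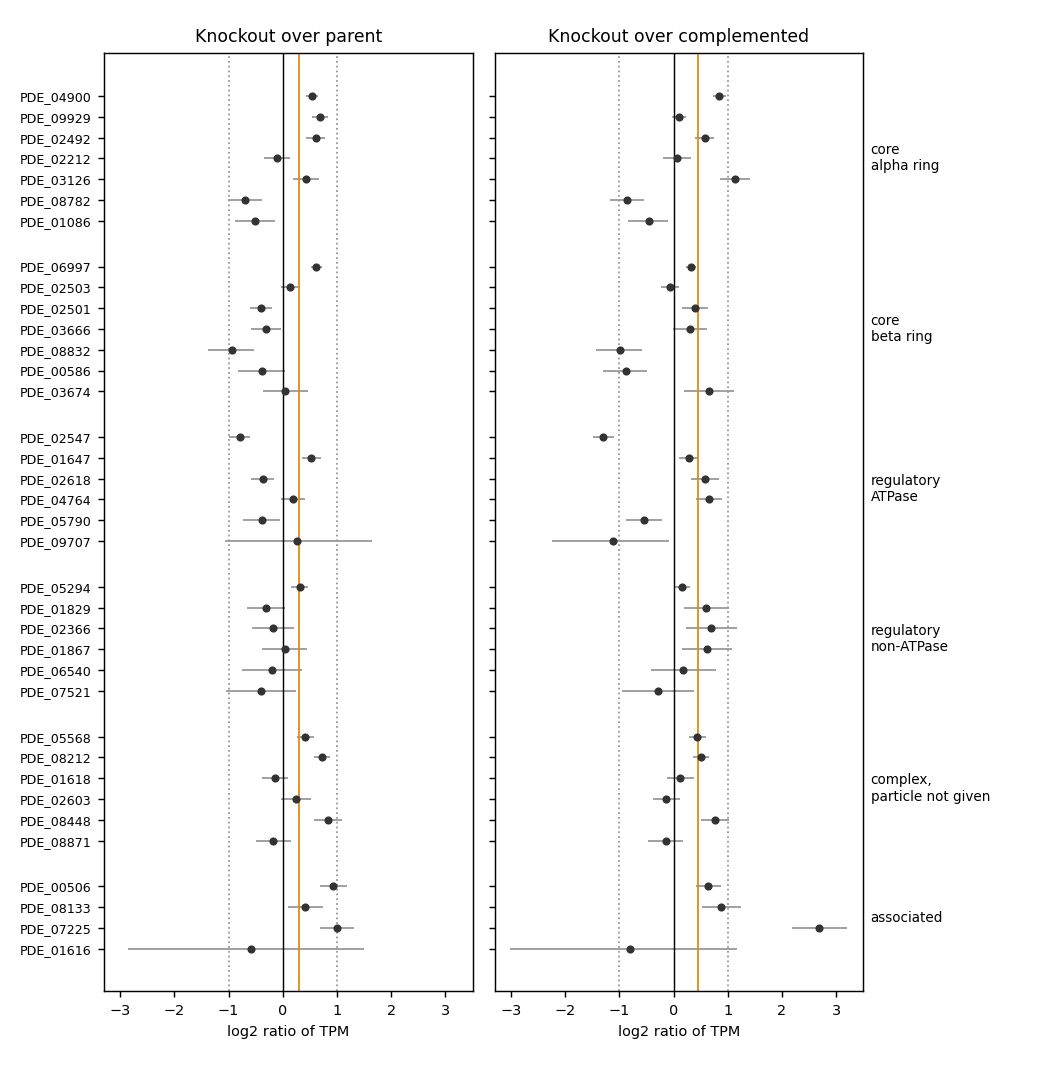
The log2 ratio of TPM of the knockout to the parent (left) and to the complemented strain (right) for each proteasome gene, with exact binomial 95% intervals from tag counts, dotted lines at 2-fold and an orange line at the median of all genes that reach 10 TPM in any library. No gene that reaches 10 TPM is 2-fold from the parent, and PDE_07225, PDE_03126 and PDE_02547 are past 2-fold from the complemented strain. PDE_09707, which stays under 10 TPM, is also past 2-fold there, with a wide interval.

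ATPases of the regulatory particle, which unfold the substrate, did not share 1 order of strains. Rpt4 (PDE_02547) stood at 168 TPM in the parent, 96.4 TPM in the knockout and 236 TPM in the complemented strain. The knockout was lowest, 1.74-fold below the parent (1.51 to 2.00) and 2.45-fold below the complemented strain (2.15 to 2.80). The complemented strain exceeded the parent 1.41-fold (1.26 to 1.57). PDE_05790, whose description matches regulatory subunit 8, had 167, 127 and 186 tags, again lowest in the knockout. The 6A-type ATPase PDE_02618 ranked the strains otherwise, with 406, 313 and 209 tags. The parent held 1.94-fold more than the complemented strain (1.64 to 2.31) and 1.29-fold more than the knockout (1.11 to 1.504).

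PDE_01647 had 434, 623 and 515 tags, highest in the knockout, and PDE_04764 had 322, 364 and 232 tags, lowest in the complemented strain. The regulatory subunit 4 match PDE_09707 had only 10, 12 and 26 tags, under 10 TPM in all libraries. Its complemented-over-parent ratio of 2.60 has an interval from 1.21 to 6.04. The sum of the ATPases was 0.929 of the parent in the knockout (0.870 to 0.991), and 0.901 of the complemented strain (0.844 to 0.961). Within that sum Rpt4 and PDE_01647 differ from the parent in opposite directions. Against the complemented strain the direction of PDE_01647 depends on the scaling. Its log2 ratio there was 0.28 by TPM and -0.16 with median-ratio factors.

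Non-ATPase genes of the regulatory particle were mostly low, and 4 of 6 were lowest in the complemented strain, as were 49.7% of the 5756 genes that reached 10 TPM. Rpn11 (PDE_05294), the metalloprotease that cuts ubiquitin off the substrate, was the exception in level, with 192 TPM in the parent, 238 TPM in the knockout and 215 TPM in the complemented strain. These values lay within 1.24-fold of each other. RpnE (PDE_01829) had 160, 129 and 85 tags, 1.88-fold more in the parent than in the complemented strain (1.44 to 2.48). Rpn8 (PDE_02366), the partner of Rpn11, had 117, 103 and 64 tags, and PDE_01867 had 99, 101 and 66. In these 3 genes the complemented library was lowest, and how close the knockout lay to the parent depends on the scaling. With median-ratio factors their log2 ratios were -0.57, -0.44 and -0.23 for knockout over parent and 0.16, 0.24 and 0.17 for knockout over complemented. The ubiquitin-binding subunit S5A (PDE_06540) had 61, 53 and 47 tags, and Mts4 (PDE_07521), which in fission yeast is a large scaffold subunit of the base, had 49, 37 and 45. For both, every interval of a ratio between strains includes 1. Of the 6 genes, 5 were lower in the complemented strain than in the parent, as were 54.3% of all genes, with a median log2 ratio of -0.46. After scaling to the median gene 4 were lower and the median was -0.31.

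The next 6 genes of the complex have no particle in their annotation. All but PDE_08448 share with the regulatory genes a KEGG pathway, that of Epstein-Barr virus infection, which 17 of the 22 genes outside the core and 0 core genes carry. PDE_08448 had 195, 347 and 204 tags for parent, knockout and complemented strain, and PDE_08212 had 584, 963 and 678. Both were highest in the knockout, PDE_08448 by 1.78-fold over the parent (1.49 to 2.14) and PDE_08212 by 1.65-fold (1.49 to 1.84). PDE_05568, annotated as an enzyme regulator, showed 1.33-fold more in the knockout than in the parent (1.19 to 1.48), with parent and complemented strain alike. PDE_01618, PDE_02603 and PDE_08871 lay between 46.0 and 91.7 TPM in all libraries, within 1.3-fold over strains by TPM. With median-ratio factors their log2 ratios were -0.41, -0.04 and -0.44 for knockout over parent. For knockout over complemented they were -0.31, -0.56 and -0.56.

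Among the associated genes, Nas6 had the largest spread between strains of the 36 genes. Nas6 (PDE_07225), in yeast a chaperone of regulatory particle assembly, stood at 37.5 TPM in the parent, 74.6 TPM in the knockout and 11.6 TPM in the complemented strain, or 126, 250 and 39 tags. The 3 libraries were well separated. The knockout exceeded the parent 1.99-fold (1.60 to 2.48) and the complemented strain 6.43-fold (4.57 to 9.25), and the parent exceeded the complemented strain 3.23-fold (2.24 to 4.75). The non-ATPase subunit 9 match PDE_08133, whose yeast relative Nas2 is also an assembly chaperone, ranked the strains likewise, with 142, 189 and 103 tags. Of the 5756 genes that reached 10 TPM, 58.9% were highest in the knockout and 49.7% lowest in the complemented strain. PDE_00506, annotated with ubiquitin thiolesterase activity, had 207, 392 and 252 tags, and was 1.90-fold higher in the knockout than in the parent (1.60 to 2.26). PDE_01616 had 6, 4 and 7 tags. It is annotated as a prenyltransferase of ubiquinone synthesis as well and shares the enzyme regulator term with PDE_01618, which lies 2 locus numbers away.

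By a rule of size, a gene stood apart in a strain when it was at least 2-fold above or below both other strains on the TPM + 1 scale. No proteasome gene stood apart in the knockout, where 10.8% of the 5756 genes tested were higher and 7.82% lower. None stood apart in the parent, where 2.35% were higher and 0.573% lower. In the complemented strain 1 gene, Nas6, was lower, against 7.11% of the genes tested, and none was higher, against 3.06%. At 1.5-fold, 3 were higher in the knockout (PDE_00506, PDE_07225 and PDE_08448), against 26.7%, and 3 lower (Rpt4, PDE_08782 and PDE_08832), against 11.6%. At the same fold 4 were lower in the complemented strain (Nas6, PDE_03126, RpnE and Rpn8), against 17.4%, and none was higher, against 6.9%. The parent had none on either side, against 5.68% higher and 3.25% lower. Closest to the rule in the knockout were Nas6, 1.99-fold above the parent, and PDE_08832, 1.93-fold below it and 1.99-fold below the complemented strain. With libraries scaled to the median gene, Rpt4 and PDE_08832 were 2-fold lower in the knockout than in both others, against 10.7% of the 5696 genes tested on that scale.

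The comparisons of 2 strains took genes with 10 TPM in either. Against the parent, none of the proteasome genes was 2-fold higher or lower in the knockout, while 14.6% and 10.2% of the 5599 genes tested were. Against the complemented strain, Nas6 and PDE_03126 were 2-fold higher in the knockout and Rpt4 was 2-fold lower, with 25.9% and 11.1% of 5620 genes so placed. These comparisons share the knockout library. Between the complemented strain and the parent, Nas6 was 2-fold lower, with 10.8% of 5226 genes lower. None of the proteasome genes tested was 2-fold higher, with 4.52% of those genes higher, and PDE_09707, with its 2.60-fold ratio, was under the limit of 10 TPM.

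**Figure D3:**
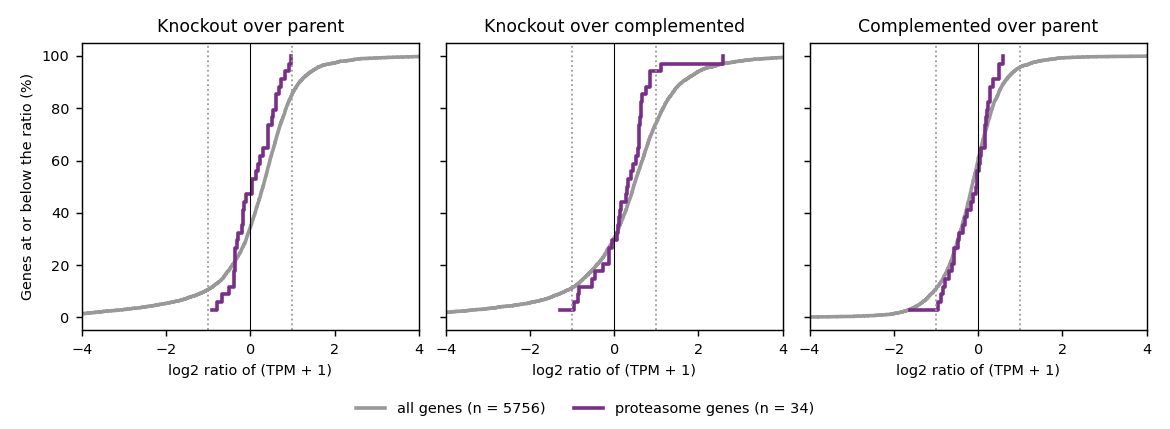
Cumulative share of genes by log2 ratio of TPM + 1 for the 34 proteasome genes and all 5756 genes that reach 10 TPM in any glucose library, in each comparison of 2 strains. The proteasome curve has shorter tails past the dotted 2-fold lines than that of all genes, and in both knockout comparisons it crosses 50% to the left of it.

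The middle of the distribution was narrower as well. The interquartile range of the log2 ratio of knockout over parent was 0.80 over the 36 genes and 0.98 over all genes. By value, 19 of 36 were higher in the knockout than in the parent, with 60.4% of all genes higher, and 24 of 36 were higher than in the complemented strain, with 63.9% of all genes. The genes lower by value were 17 (35.2% of all genes) and 12 (31.7%). Between the complemented strain and the parent, 17 of 36 were higher and 19 lower, with 38.2% and 54.3% of all genes. Of the 34 genes that reach 10 TPM, the knockout was highest of the 3 strains in 16, with 58.9% of the 5756, and lowest in 8, with 23.6%. The median log2 ratio over the 36 was 0.04 against the parent, below the 0.21 of all genes. It was 0.29 against the complemented strain, below the 0.35 of all genes. Scaled to the median gene, these medians were -0.23 and -0.14, and 23 and 21 of the 36 genes were lower in the knockout. The sign therefore depends on the scaling.

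In the comparison with the parent, abundant and less abundant members were placed differently. Of 10 proteasome genes with at least 100 TPM in the complemented strain, 9 were higher in the knockout than in the parent, Rpt4 being the exception, against 10 of the other 26. Scaled to the median gene, PDE_02503 was also lower in the knockout (log2 ratio -0.14). Over all genes that reach 10 TPM the order was the opposite, with 432 of 806 and 3344 of 4950. Spearman's rho between level in the complemented strain and the log2 ratio of knockout over parent was 0.33 over the 36 genes and -0.24 over the 5756. The genes share libraries and are not independent, and the cut of 100 TPM was chosen after the values were seen. Against the complemented strain, Rpt4 and PDE_02503 of these abundant genes were lower in the knockout by TPM. With median-ratio factors PDE_09929, PDE_06997, PDE_01647 and PDE_05294 were lower as well (log2 ratios -0.34, -0.11, -0.16 and -0.29). PDE_04900, PDE_02492, PDE_08212 and PDE_05568 stayed higher (0.40, 0.14, 0.07 and 0.002).

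A test across all genes was run with edgeR's quasi-likelihood method, setting the knockout library against the parent and complemented libraries as 1 group of strains that carry mtr23B. Its spread is that between 2 different strains, and the lone knockout library is assumed to vary like them. None of the 35 proteasome genes tested passed an adjusted p of 0.05, while 1.09% of the 7351 genes tested rose and 2.72% fell. PDE_01616 had too few tags to enter. At an unadjusted p under 0.05 there were 3, PDE_08832, Rpt4 and PDE_08782, all lower, against 16.2% of all genes. Their adjusted p-values in edgeR were 0.201, 0.283 and 0.284. DESeq2 called 0 as well, with 1 gene at an unadjusted p under 0.05. Nas6 had an edgeR adjusted p of 0.365.

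The other genes of the ubiquitin system were taken by patterns in the product description or from the KEGG proteasome pathway. Not all had enough tags for the edgeR test. Those tested included 11 of 12 conjugating enzymes and 7 of 9 deubiquitinating enzymes. Of the Cdc48, COP9 signalosome and further KEGG lists below, 3 of 4, 1 of 2 and 7 of 8 were tested. Ubiquitin itself was abundant and, by TPM, close in level between strains. Polyubiquitin (PDE_03961) stood at 719, 794 and 763 TPM for parent, knockout and complemented strain. The fusion of ubiquitin with ribosomal protein S31 (PDE_04897) stood at 798, 973 and 876 TPM. Over the 4 ubiquitin and ubiquitin-like genes, the median log2 ratio of knockout over complemented was 0.10 by TPM and -0.33 with median-ratio factors. That of knockout over parent was 0.21 and -0.06. None of the 4 ubiquitin and ubiquitin-like genes, 2 activating enzymes (E1) and 12 conjugating enzymes (E2) passed the edgeR test or stood 2-fold apart in the knockout. Of 31 genes matched as ubiquitin ligases (E3) or their subunits, 27 entered the edgeR test. By the size rule, 1 of the 23 that reached 10 TPM stood lower in the knockout, against 7.82% of the 5756 genes tested. It was the F-box protein PDE_03146, with 78, 3 and 159 tags. F-box proteins choose the substrates of ligases. The knockout held 0.0386 of the level of the parent (0.00778 to 0.117). Another F-box protein, PDE_05233, stood 2-fold higher in the knockout, with 189, 432 and 98 tags. It was the only 1 of the 23 so placed, against 10.8% of the 5756 genes. The probable HECT ligase hulA (PDE_07024) was named after its values were seen, like Shp1 and Sem1 below. It stood 2-fold lower in the complemented strain, with 88.4, 93.4 and 41.4 TPM. No other of the 23 was so placed, against 7.11% of the 5756 genes.

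None of the 9 deubiquitinating enzymes passed. CreB (PDE_08362), known from Aspergillus nidulans as a deubiquitinating enzyme of carbon catabolite repression, had 97, 236 and 49 tags. Of the 5 deubiquitinating enzymes that reached 10 TPM, CreB alone stood 2-fold higher in the knockout, against 10.8% of the 5756 genes. It ranked the strains as Nas6 did. Among the 5756 genes that reached 10 TPM, the knockout was highest in 58.9% and the complemented strain lowest in 49.7%. The 4 genes matched to the Cdc48 segregase have descriptions of its adaptors or partners, and none is described as Cdc48 itself. Of these, 3 reached 10 TPM. Among the 3, only Shp1 (PDE_09515), an adaptor of Cdc48, was 2-fold lower in the complemented strain than in both others. It stood at 68.8, 74.0 and 32.2 TPM, and 7.11% of the 5756 genes were so placed. Neither of the 2 COP9 signalosome genes passed. Of 8 further genes of the KEGG proteasome pathway none passed or stood apart. Among these, Sem1 (PDE_07160), a small subunit of the regulatory particle, had 65, 100 and 33 tags, 3.04-fold more in the knockout than in the complemented strain (2.03 to 4.65).

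**Figure D4:**
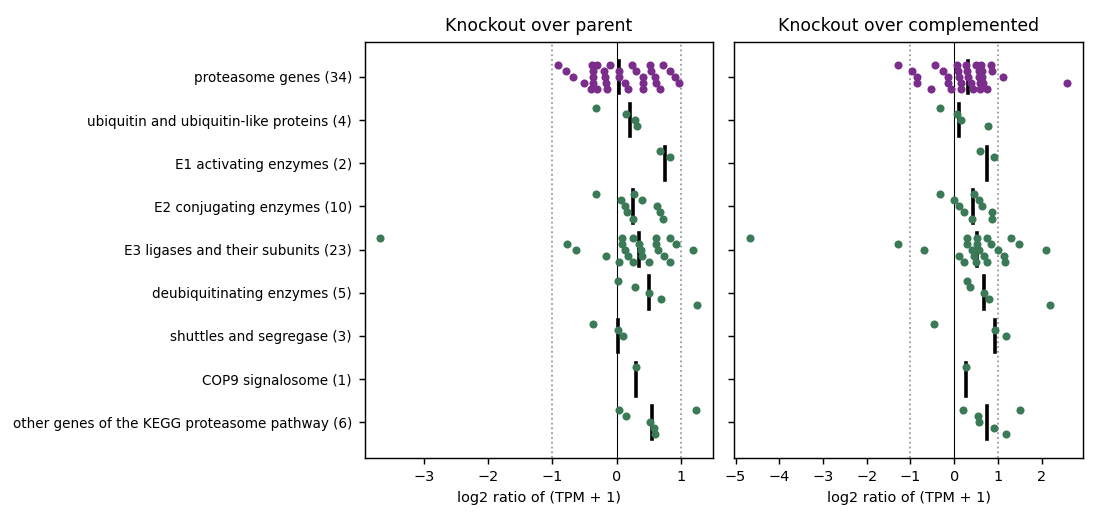
Log2 ratio of TPM + 1 of the knockout to the parent (left) and to the complemented strain (right) for proteasome genes and other lists of the ubiquitin system, for genes that reach 10 TPM in any library, with their number in brackets, 1 point a gene, a black bar at the median and dotted lines at 2-fold. The point far to the left is the F-box protein PDE_03146.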

How the data were processed

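One table of the whole series was used. Per the file headers it holds raw tag counts for each of 6 libraries and, beside them, TPM, which the deposited values give as tags per 1000000 of the stated library total (recomputed values match within 0.005). Per the labels' protocols, NlaIII and MmeI released tags of 17 bp, sequenced as 35-bp reads. The tag mapper, genome build, annotation, use of strand and rule for shared tags have no entry in the sources used here, so overlapping genes are uncertain. The cellulose and wheat bran columns were not used: across rows they did not follow the identifiers (Spearman's rho with the glucose parent -0.0028 to -0.0031, against 0.89 and 0.95 within glucose).

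Classes came from Gene Ontology terms and, where informative, the best protein match. The genes given with ratios were the most abundant of each particle, those with the largest differences, those 2-fold apart and those under 10 TPM. Further values were added so that every member is shown. Members and lists were chosen with earlier results of these data known. The size rule asked for 10 TPM (33.5 to 33.6 tags) in any library. Ratios have exact binomial 95% intervals. The pseudocount was 1 TPM. edgeR 4.0.16 (TMM, filterByExpr, Benjamini-Hochberg, two-sided) and DESeq2 1.42.0 ran in R 4.3.3 on the deposited counts, and the edgeR script was tested on simulated data. Other scalings, pseudocounts, minimums, folds and member lists were tried.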

Additional observations from a re-analysis of the deposited data

Results flagged for a closer look

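In the cellulose and wheat bran columns, 282 rows without an identifier held 44031 tags in the parent, 36082 in the knockout and 44651 in the complemented strain. They lie outside every comparison above.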

How the results depend on the processing

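Of 100 values recomputed under alternatives, 10 reversed, 6 moved and 84 did neither. A median counts as moved past the median half-width of the counting intervals (0.27 to 0.28 on the log2 scale), and a count past 1.5 times. The medians over the 36 genes reversed with scaling. For knockout over parent the log2 median went from 0.04 to -0.23 with median-ratio factors, -0.22 with TMM and -0.14 with assigned tags without PDE_09832, a scaling chosen after seeing the data. It was -0.19 over the 19 genes whose description names the complex, where the other medians were 0.15 (knockout over complemented) and -0.12 (complemented over parent). For knockout over complemented it went from 0.29 to -0.14, -0.12 and -0.043 under those scalings, and for complemented over parent from -0.03 to 0.13, 0.11 and 0.12. Scaled to assigned tags the 3 medians were 0.06, 0.38 and -0.10. These scalings shift the ratios of all genes alike. The genes 2-fold lower in the knockout than in both others were 2 (Rpt4 and PDE_08832) with median-ratio factors and with TMM, and 1 without PDE_09832, instead of 0. At 1.5-fold, 3 were higher and 3 lower in the knockout, and 4 lower in the complemented strain instead of 1. Over all genes, edgeR called 80 higher and 200 lower in the knockout, and 181 and 421 without the filter on low counts. No proteasome gene was called by edgeR or DESeq2 under any setting run. Leaving out a library was not possible, since each strain has 1, and a library left out of the edgeR test leaves no residual degree of freedom. No paired analysis was possible because each strain has a single library and the labels give no replicate number. Genes under 50 tags, such as PDE_07521 and PDE_09707, have intervals too wide to show a difference under about 2-fold.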
